A study of Mus musculus with 16 samples.

Results

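The amyloid precursor protein family of the mouse has 3 members, App, Aplp1 and Aplp2, and all 3 were measured on these exon arrays. Members were chosen by gene symbol alone: every probe set whose annotation holds 1 symbol, and that symbol a member, was taken. That gave 77 probe sets, 27 of App, 17 of Aplp1 and 33 of Aplp2, out of 303629 probe sets that carry a single symbol and 21634 such symbols. RNA came from whole brain or spinal cord of CD1 mouse embryos at E18.5. The 4 groups were Nova1/2 double knockout brain, wild type brain, Nova1/2 double knockout spinal cord and wild type spinal cord, with 4 arrays each and 1 array per biological replicate. The labels do not name the knockout alleles, littermates or the animals behind each number. Below, double knockout means embryos lacking both Nova1 and Nova2.

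App, Aplp1 and Aplp2 encode membrane proteins with a single transmembrane segment, a large extracellular part and a short cytoplasmic tail. They are cut by alpha and beta secretases outside the membrane and by gamma secretase within it, and App is the source of the amyloid beta peptide. Primary transcripts of App and Aplp2 are alternatively spliced, including at an exon that encodes a Kunitz protease inhibitor domain, while Aplp1 lacks that domain and is largely neuronal. Nova1 and Nova2 are RNA-binding proteins of neurons that control the choice of alternative exons. Aplp2 is among the genes known as Nova splicing targets, so its change here is not independent evidence of that.

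Each value is a probe set's intensity, a brightness per small stretch of a gene, taken as log2(intensity + 16). A gene level is the median of that log2 value over the gene's probe sets whose mean over all 16 arrays is above a floor of 6.73, the median over all probe sets. The exon index is a probe set's log2 value minus its gene level on the same array, so it follows one stretch of a transcript relative to the whole gene. Of the 77 family probe sets, 71 passed the floor: 23 of App, all 17 of Aplp1 and 31 of Aplp2. The 6 that did not pass had array values between 4.88 and 7.80 for App (4340973, 4946976, 5196224 and 5602518) and between 5.65 and 7.16 for Aplp2 (5271110 and 5564267), and are not tested. No position within a gene was used, so probe sets go by their array identifiers, and none is called a particular exon. Levels of different probe sets or genes are not compared with each other, because probes differ in brightness.

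The targeted genes follow the labels. Nova1 gene level was 4.64 to 5.51 in double knockout brain, against 10.00 to 10.72 in wild type brain, and 6.28 to 6.54 in double knockout cord, against 11.52 to 11.94 in wild type cord. Nova2 fell by 0.75 in brain and by 1.14 in cord (limma, adjusted p = 0.00162 and 2.43e-06). App and Aplp2 lie on other chromosomes than Nova1 and Nova2, and Aplp1 shares chromosome 7 with Nova2 at 164 tested genes' distance. In spinal cord, glial and erythroid genes moved with genotype: the summed intensity of 7 tested astrocyte markers of 8 listed was 8787 to 10690 in double knockout cord against 11410 to 15370 in wild type cord, and 8 microglial markers summed to 1327 to 1667 against 1868 to 2803. Oligodendrocyte markers, 6 tested of 7, summed to 1712 to 1911 in double knockout cord against 2304 to 2915 in wild type cord, and 2 tested erythroid markers of 4 to 457.9 to 529.9 against 766.9 to 893.9. Of these 4 lists 5, 4, 3 and 1 genes were called lower in cord, for astrocytes, microglia, oligodendrocytes and erythroid cells in turn. Over all genes 4.55% were called lower there. In the astrocyte and microglial lists 1 tested gene each had a positive change, uncalled. All 6 fibroblast genes had a positive cord change (median 0.36), with 0 called. Pan-neuronal markers, 7 tested of 8, summed to 15060 to 17820 in double knockout cord and 15720 to 17470 in wild type cord, and none was called. Skeletal muscle markers, 9 tested of 10, were high in 4 cord arrays of both genotypes, 4392 to 10530 against 1600 to 1975 in the other 4 cord arrays. Among brain arrays, the number 3 arrays had the lowest sum of 5 tested telencephalon markers of 8 listed, 2155 in double knockout against 3653 to 3944 on the other 3, and 862 in wild type against 3408 to 3865. In whole tissue, fewer cells of a type and less RNA per cell cannot be told apart. Judged from sex-linked genes, the embryos were 4 females in double knockout brain, 2 females and 2 males in wild type brain, 3 females and 1 male in double knockout cord, and 2 of each in wild type cord.

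Loss of Nova1 and Nova2 was accompanied by a large fall at a single Aplp2 probe set, 5477899, in both tissues, while the other family probe sets moved little. The intensity of 5477899 was 317, 408, 378 and 413 in double knockout brain, against 1805, 1600, 2643 and 2196 in wild type brain. Every double knockout brain array was thus far below every wild type brain array, and the lowest wild type value was 1600. In spinal cord its intensity was 559, 658, 755 and 690 in double knockout, against 2883, 2880, 2676 and 2403 in wild type. The cord groups did not overlap either, and the double knockout cord arrays were all above the double knockout brain arrays. Group means were 379 ± 44.1 in double knockout brain and 2061 ± 460 in wild type brain, and 666 ± 81.8 in double knockout cord and 2711 ± 227 in wild type cord (intensity, SD, n = 4).

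**Figure D1:**
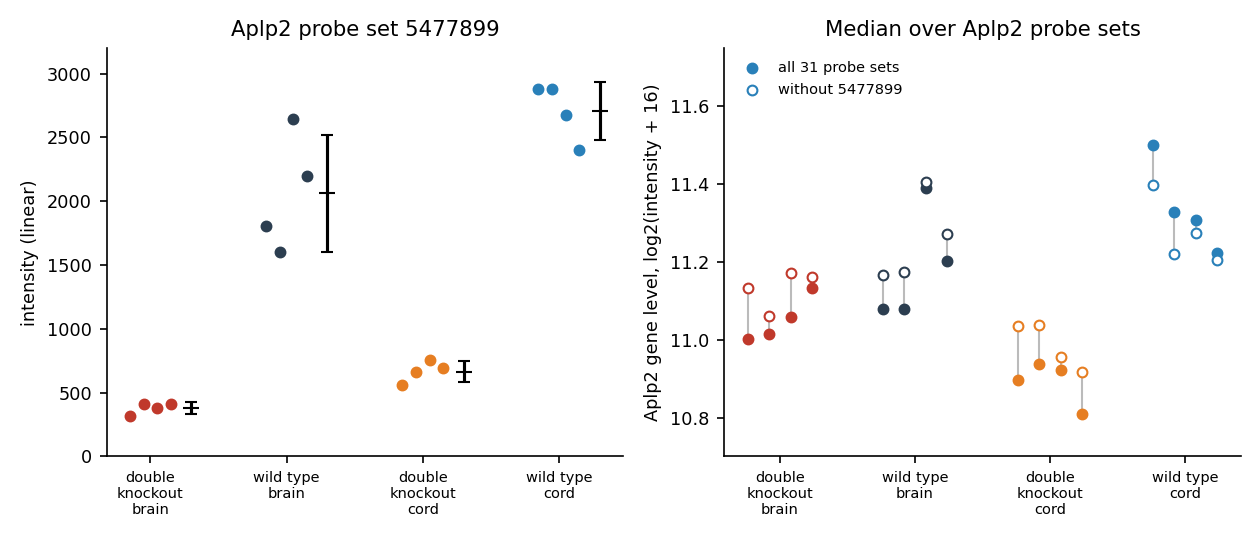
Left, linear intensity of Aplp2 probe set 5477899 on each array by group, with the group mean and SD beside the points; double knockout arrays lie between 317 and 755 and wild type arrays between 1600 and 2883. Right, the Aplp2 gene level of each array as the median over all 31 probe sets (filled) and without 5477899 (open), joined by a line; in spinal cord the filled points of the 2 genotypes lie farther apart than the open ones.

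On the log2 scale the level of 5477899 was lower by 2.38 in brain (change -2.38, SE 0.148, a 5.19-fold lower level; limma, adjusted p = 1.37e-07 over 206355 probe sets, of which 0.305% were called). In spinal cord the level change was -2.00 (SE 0.148, 4.01-fold lower, adjusted p = 1.3e-06). Its exon index, which sets it against the rest of Aplp2, averaged -2.43 ± 0.14 in double knockout brain and -0.19 ± 0.18 in wild type brain (SD, n = 4). The brain change in exon index was -2.24 (SE 0.112, adjusted p = 3.71e-08 over 193126 probe sets). In cord the exon index averaged -1.49 ± 0.19 in double knockout and 0.069 ± 0.078 in wild type, a change of -1.55 (SE 0.112, adjusted p = 3.2e-06). Among the 193126 probe sets tested by exon index it stood 6th by p in brain and 17th in cord. Of the 71 family probe sets, 1 was called by exon index in brain, where 0.15% of all probe sets were called and 0.0818% called lower. In cord 3 were called, 1 lower and 2 higher, where 0.388% of all probe sets were called, 0.153% lower and 0.235% higher. All of these belong to Aplp2.

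The fall in exon index was larger in brain than in cord by 0.69 (95% confidence interval 0.35 to 1.02), but this difference did not pass the test over all probe sets (limma, adjusted p = 0.641), in which 0.000518% were called, a single one. The difference in the level change was 0.37 (adjusted p = 0.788). The Aplp2 gene level that is subtracted in the exon index includes 5477899 itself. With the Aplp2 level taken over the other 30 probe sets, a choice made after seeing the data, the exon index change was -2.25 in brain and -1.72 in cord. Double knockout brains were all female, and with a sex term the changes were -2.18 and -1.53, both still called. In wild type tissue the level of 5477899 was higher in spinal cord than in brain by 0.41 (adjusted p = 0.0285, where 48.6% of all probe sets were called), with overlapping arrays, while its exon index difference of 0.26 was not called (adjusted p = 0.107).

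**Figure D2:**
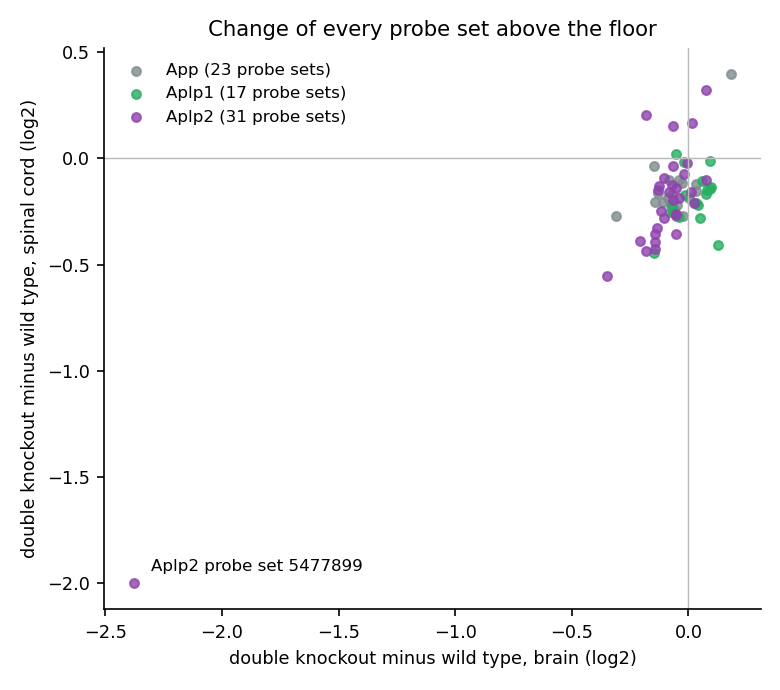
Change in log2 level, double knockout minus wild type, in brain (horizontal) and spinal cord (vertical) for the 71 family probe sets above the floor, coloured by gene. Aplp2 probe set 5477899 lies alone at -2.38 and -2.00, and the other 70 lie between -0.35 and 0.18 in brain and between -0.55 and 0.40 in cord.

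The other 30 Aplp2 probe sets show how the rest of the transcript behaved. In brain 25 of them had a negative level change and 5 a positive one, with a median of -0.07. None was called, near the 0.305% of all probe sets called by level. In brain, 1 of the 30 had arrays that did not overlap between genotypes, 5166920, at 9.03, 9.23, 9.17 and 9.26 in double knockout against 9.36, 9.43, 9.70 and 9.60 in wild type (change -0.35, adjusted p = 1). Over all probe sets, 3.68% were separated in this way in brain, 1.79% lower. In cord 26 of the 30 had a negative level change, with a median of -0.17 and a range of -0.55 to 0.32, and 6 were separated, all lower in double knockout, as were 6.03% of all probe sets. By level, 1 of them was called in cord, 5549299, at 10.85, 10.91, 10.92 and 10.81 in double knockout against 11.20, 11.33, 11.32 and 11.22 in wild type. Its arrays did not overlap, and its change was -0.40 (SE 0.098, adjusted p = 0.0348), where 3.27% of all probe sets were called by level. The largest fall among the 30 was again 5166920, at 8.82 to 9.18 in double knockout cord against 9.25 to 10.15 in wild type cord, which did not overlap but missed the threshold (change -0.55, adjusted p = 0.0695).

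**Figure D3:**
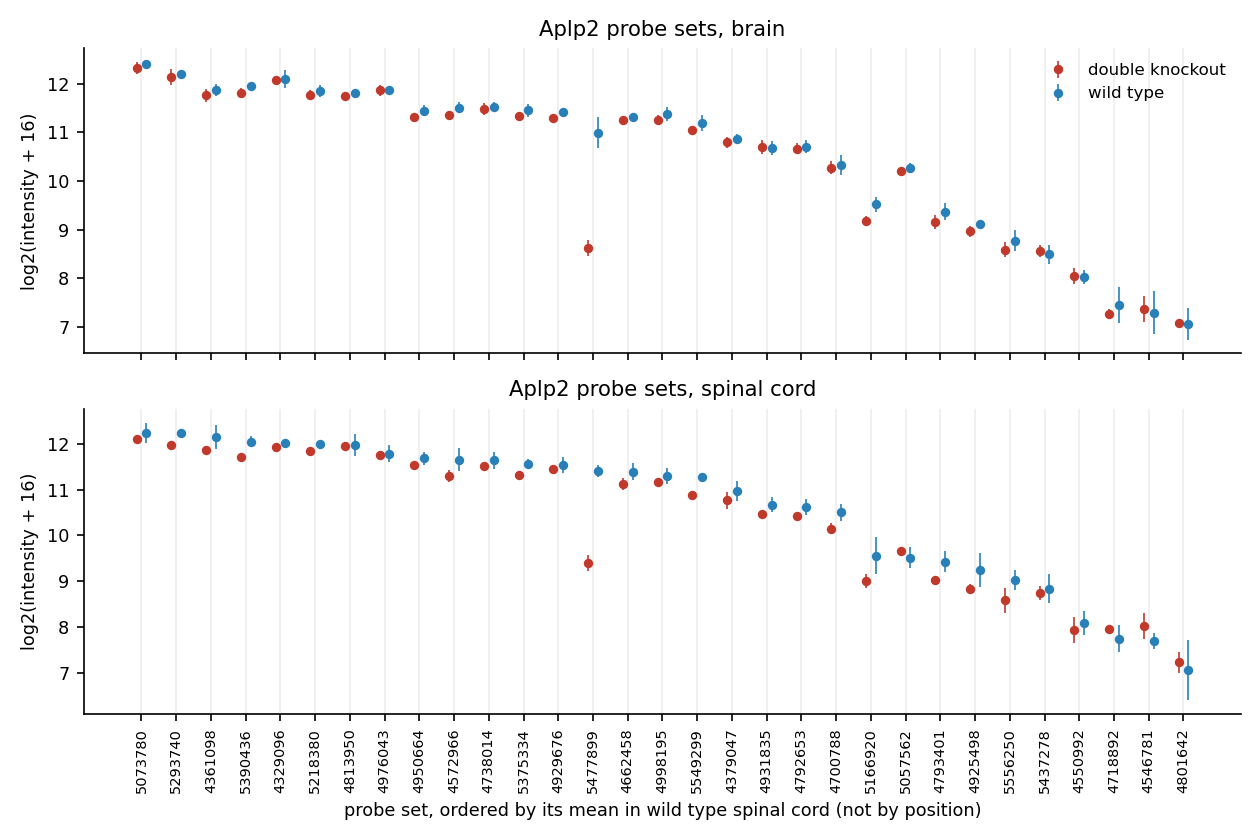
Mean and SD (n = 4) of log2(intensity + 16) for the 31 Aplp2 probe sets above the floor in brain (top) and spinal cord (bottom), double knockout in red and wild type in blue, ordered by the mean in wild type cord and not by position. At 5477899 the double knockout means of 8.62 and 9.40 stand apart from the wild type means of 10.99 and 11.41, while elsewhere the 2 genotypes run close together.

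In spinal cord 2 further Aplp2 probe sets were called by exon index, both higher in double knockout: 5057562 (0.60, adjusted p = 0.0103) and 4718892 (0.65, adjusted p = 0.0342). Neither was called in its own level. The log2 level of 5057562 was 9.66, 9.67, 9.76 and 9.58 in double knockout cord against 9.82, 9.27, 9.53 and 9.44 in wild type cord, and these overlap (change 0.15, adjusted p = 0.523). The log2 level of 4718892 was 7.90, 8.06, 7.93 and 7.92 in double knockout cord against 7.99, 7.93, 7.36 and 7.70 in wild type cord, which overlap too (change 0.20, adjusted p = 0.563). In all, 29 of the 31 Aplp2 probe sets had a positive exon index change in cord, with a median of 0.26 against 0.0075 over all probe sets, and 16 were separated higher, where 3.16% of all probe sets were. The largest of them, 0.77 at the dim 4546781, missed the threshold (adjusted p = 0.0811), and the brightest Aplp2 probe set, 5073780, had 0.32 (adjusted p = 0.194). These shifts share one term, the lower Aplp2 gene level that is subtracted from each. Both calls ended when 5477899 was left out of that level (adjusted p = 0.0532 and 0.162), and that of 4718892 also in 6 of the 8 fits without 1 cord array (adjusted p from 0.0522 to 0.114).

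The Aplp2 gene level itself was 10.90, 10.94, 10.92 and 10.81 in double knockout cord, against 11.50, 11.33, 11.31 and 11.22 in wild type cord. The 2 cord groups did not overlap, as in 7.62% of all genes that were lower in this way. The change was -0.45 (SE 0.0925, 1.37-fold lower; limma, adjusted p = 0.00642 over 14570 genes), in a comparison in which 5.63% of genes were called and 4.55% were called lower. The size of this fall depended on 5477899. Of 31 probe sets the middle one is at rank 16, and 5477899 stood at rank 22 on every double knockout cord array but at ranks 12 to 16 in wild type cord. It thus crossed the median between the genotypes in cord. In brain it did not, at ranks 25 to 27 in double knockout and 17 to 19 in wild type.

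Without 5477899 the Aplp2 level was 10.92 to 11.04 in double knockout cord and 11.20 to 11.40 in wild type cord, still with no overlap. The change was then -0.29 (SE 0.0856, adjusted p = 0.0537), which is smaller by over 1.5 times and no longer past the threshold. Leaving out any other of the 31 probe sets kept the call. Taking the mean over probe sets gave -0.23 (adjusted p = 0.0636), and leaving out the 4 cord arrays rich in muscle genes gave -0.41 (adjusted p = 0.164). The latter fit has fewer cord arrays, and over all genes it called 100 in cord against 820 with all arrays. The other 30 Aplp2 probe sets had a median cord level change of -0.17, smaller than the gene level changes of -0.45 and -0.29. That median is close to those of the App probe sets (-0.20) and the Aplp1 probe sets (-0.17). By that measure Aplp2 without 5477899 did not stand apart from its relatives. The glial and erythroid marker sums given above were lower in the same double knockout cords, and their part in the Aplp2 level was not tested.

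In brain the Aplp2 gene level was 11.00, 11.02, 11.06 and 11.13 in double knockout, against 11.08, 11.08, 11.39 and 11.20 in wild type. The groups overlap, and the change of -0.13 (SE 0.0925) was not called (adjusted p = 1), where 0.268% of genes were. Arrays of 1 number deviated together in brain, and within all 4 such pairs Aplp2 was lower in double knockout. The changes were -0.077, -0.063, -0.33 and -0.068 for numbers 1 to 4, and the fit with the number as a block did not call Aplp2 (adjusted p = 0.885). The largest is number 3, whose wild type array had the telencephalon sum of 862. The cord change minus the brain change was -0.31 (95% confidence interval -0.59 to -0.041), with adjusted p = 0.535, so a tissue difference in the fall of the Aplp2 level was not shown. This difference was -0.16 without 5477899 (adjusted p = 0.786) and -0.076 with means over probe sets (adjusted p = 0.912). At gene level limma called 0 of 14570 genes for that difference, with 1166 at an unadjusted p under 0.05.

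**Figure D4:**
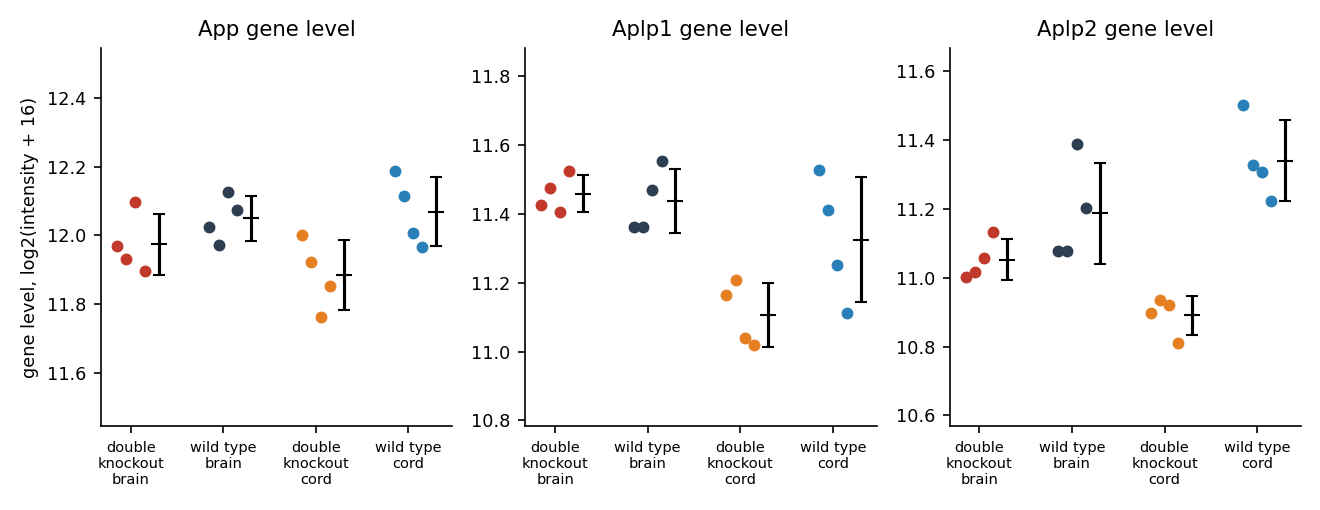
Gene level, the median log2(intensity + 16) over a gene's probe sets, of App (23 probe sets), Aplp1 (17) and Aplp2 (31) on each of the 16 arrays by group, with the group mean and SD beside the points. The vertical axes span the same range around each gene's mean, and Aplp2 in spinal cord is where the genotypes do not overlap.

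App, the precursor of amyloid beta, was not called in either tissue. Its gene level was 11.97, 11.93, 12.10 and 11.90 in double knockout brain against 12.03, 11.97, 12.13 and 12.07 in wild type brain. In spinal cord it was 12.00, 11.92, 11.76 and 11.85 in double knockout against 12.19, 12.11, 12.01 and 11.97 in wild type. Both pairs of groups overlap. The brain change was -0.075 (SE 0.0885, adjusted p = 1). App too was lower within all 4 same-numbered brain pairs, by a change of -0.18 to -0.029, and was not called with the block (adjusted p = 0.965). The brain change was -0.0052 when probe set 5566662 was left out of the App level. In cord the App change was -0.18 (95% confidence interval -0.37 to 0.0013, adjusted p = 0.259).

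By level none of App's probe sets was called in cord, where 3.27% of all probe sets were, so the count is near that share. Of its 23, 22 had a negative level change there, with a median of -0.20 against -0.02 over all probe sets, and 8 were separated lower in double knockout, where 6.03% of all probe sets were. An example is 5387985, with 10.96, 10.81, 10.93 and 10.94 in double knockout cord against 11.31, 11.03, 11.21 and 11.16 in wild type cord (level change -0.27, adjusted p = 0.12). The brightest App probe set, 5504754, was also separated, at 12.76 to 12.93 in double knockout cord and 13.03 to 13.16 in wild type cord (level change -0.22, adjusted p = 0.21). The single App probe set with a positive cord change, 5034430, is dim and scattered, at 7.61, 7.94, 8.21 and 7.70 in double knockout cord against 7.84, 7.66, 6.64 and 7.71 in wild type cord (exon index change 0.58, adjusted p = 0.497). In brain 18 of 23 had a negative level change, and 1 was separated lower, where 1.79% of all probe sets were. By level 0 were called there, near the 0.305% of all probe sets. By exon index the largest App change in brain was again that of the dim 5034430, at 6.41 to 7.21 in double knockout and 5.77 to 7.49 in wild type (0.26, adjusted p = 1). The next was that of 4349797, which overlapped too, at 8.81 to 9.20 in double knockout and 9.13 to 9.54 in wild type (-0.24, adjusted p = 1). By exon index 0 of the 23 were called in either tissue, where 0.15% of all probe sets were in brain and 0.388% in cord. A count of 0 among 23 is near those shares. Among the larger App changes, 5095412 had an exon index change of 0.11 in brain and 5160375 one of 0.15 in cord (adjusted p = 1 and 0.587). The exon index changes of App ran from -0.24 to 0.26 in brain and from -0.09 to 0.58 in cord.

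Aplp1, the largely neuronal member, was likewise uncalled. Its gene level was 11.43, 11.47, 11.40 and 11.53 in double knockout brain against 11.36, 11.36, 11.47 and 11.55 in wild type brain, which overlap (change 0.021, SE 0.0972, adjusted p = 1). It was lower in double knockout within 2 of the 4 same-numbered brain pairs. In cord it was 11.17, 11.21, 11.04 and 11.02 in double knockout against 11.53, 11.41, 11.25 and 11.11 in wild type. These overlap as well, and the change of -0.22 (95% confidence interval -0.42 to -0.015) did not pass the test over all genes (adjusted p = 0.216).

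Of the 17 Aplp1 probe sets, 16 had a negative level change in cord, with a median of -0.17 against -0.02 over all probe sets, and 1 was separated lower, near the 6.03% of all probe sets that were. In brain 10 were positive and 7 negative. The separated one was 5591686, the dimmest of the gene, at 8.10, 8.06, 8.06 and 8.08 in double knockout cord against 8.22, 8.74, 8.99 and 8.13 in wild type cord (level change -0.45, adjusted p = 0.154). Probe set 4357555 had changes of opposite sign in the 2 tissues, at 11.32 to 11.41 in double knockout brain against 11.20 to 11.27 in wild type brain, and at 10.67 to 10.95 in double knockout cord against 10.86 to 11.46 in wild type cord. Its level changes of 0.13 and -0.41 were not called (adjusted p = 1 and 0.0653). The exon index changes in cord were 0.24 for 4680135 and 0.20 for 4724088 (adjusted p = 0.546 and 0.605), and 0.11 for 4921019, the brightest of the gene. By exon index 0 of the 17 were called in either tissue, near the 0.15% of all probe sets in brain and 0.388% in cord. The changes ran from -0.17 to 0.11 in brain and from -0.23 to 0.24 in cord.

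Ordered by mean gene level, App and Aplp2 share one order of the groups: wild type cord, wild type brain, double knockout brain and double knockout cord. For App every pair of neighbours in that order overlaps. For Aplp2 the last pair does not, with 10.81 to 10.94 in double knockout cord and 11.00 to 11.13 in double knockout brain. Aplp1 has the order double knockout brain, wild type brain, wild type cord and double knockout cord, and all its neighbours overlap.

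In wild type tissue none of the 3 gene levels was called between spinal cord and brain, in a comparison in which 60.4% of genes were called. The cord minus brain difference was 0.020 for App (adjusted p = 0.855), -0.11 for Aplp1 (0.326) and 0.15 for Aplp2 (0.158). The median over all genes was itself -0.16 in that comparison, so relative to it the 3 genes stood at 0.18, 0.045 and 0.31. By level, however, 16 of the 17 Aplp1 probe sets had a negative difference, with a median of -0.23 against -0.15 over all probe sets. Of the 17, 7 were called lower, where 48.6% of all probe sets were called in either direction. The arrays of 8 were separated lower, as for 23% of all probe sets. Leaving 1 probe set out of the Aplp1 level gave -0.22 to -0.12, called only without 4491075 (-0.22, adjusted p = 0.0493). Some stretches were called between the tissues, as was common over all probe sets. By exon index 3 App probe sets were called (4384752 and 4950362 higher and 4848806 lower in cord). For Aplp1 5 were called, all lower (4680135, 4724088, 4734865, 4830763 and 5169827), and for Aplp2 4, all lower (4792653, 4998195, 5057562 and 5073780). Over all probe sets 22% were called, 9.59% lower and 12.4% higher. With 23, 17 and 31 probe sets tested, the App and Aplp2 counts are below the 22% and the Aplp1 count is a little above it. Against the 9.59% called lower, the 5 of 17 for Aplp1 are well above that share and the 4 of 31 for Aplp2 a little above it. The probe sets of 1 gene share the gene level that is subtracted. Over the alternatives the App, Aplp1 and Aplp2 counts ranged from 0 to 8, 2 to 7 and 1 to 5.

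The clearest of these tissue differences was Aplp2 5057562. Its log2 level was 9.82, 9.27, 9.53 and 9.44 in wild type spinal cord, against 10.21, 10.35, 10.34 and 10.15 in wild type brain. The 2 groups did not overlap, as for 23% of all probe sets that were lower in this way, with a level change of -0.75 (adjusted p = 9.77e-05) and an exon index change of -0.90 (SE 0.097, adjusted p = 3.64e-05). In double knockout brain it was 10.14, 10.18, 10.30 and 10.17, which overlaps wild type brain. Among the 5 Aplp1 probe sets, 5169827 had the smallest adjusted p, with 10.83, 10.50, 10.62 and 10.38 in wild type cord against 11.07, 11.21, 11.08 and 11.17 in wild type brain (exon index -0.44, adjusted p = 0.00441).

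The genes whose levels ran most like a member's over the 16 arrays were found by the smallest root mean square difference after each gene was centred on its own mean. For App these were 2610507B11Rik (0.060 log2 units), Mpp2, Jam2, Gphn and Stim1. For Aplp1 they were Psap (0.0746), Scd2, Stx1a, Nfe2l1 and Tnfrsf21, the last of which encodes a death receptor reported to bind APP. For Aplp2 they were Ttc39b (0.070), Slc7a14, Garnl3, Accn2 and Lpcat4, and each of these 5 was called lower in double knockout cord, from -0.52 for Slc7a14 to -0.40 for Accn2, as their choice for likeness to Aplp2 would favour. The members were less alike, at 0.132 for App and Aplp1, 0.128 for App and Aplp2 and 0.167 for Aplp1 and Aplp2. The arrays share tissue and genotype, so these likenesses are descriptions.

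Of 12 listed genes of the secretases that cut the family's proteins, 10 were tested and 0 were called in either tissue. With 0.268% of all genes called in brain and 5.63% in cord, a count of 0 among 10 is near the background. Their median change was 0.044 in brain and 0.020 in cord against 0.021 and -0.028 over all genes. Those nearest to a call were Adam10, the main alpha secretase of neurons (0.24 in cord, adjusted p = 0.179), Bace1, the beta secretase (-0.20, adjusted p = 0.22), and its homologue Bace2 (0.26, adjusted p = 0.252). Of 19 cytoplasmic adaptor and signalling partner genes, all tested, 1 fell in cord and 0 were called in brain, so the cord count is near the 4.55% of all genes called lower. The median changes were 0.040 in brain and -0.090 in cord. The gene called was Mapk8ip1, the JIP1 scaffold that links the APP tail to kinesin and JNK, with 9.78 ± 0.19 in double knockout cord and 10.21 ± 0.16 in wild type cord (SD, n = 4; change -0.44, adjusted p = 0.0204). Dab1, the reelin adaptor that binds the APP tail, missed the threshold (-0.50, adjusted p = 0.0609), as did the kinesin light chain gene Klc1 (0.30, adjusted p = 0.0905).

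Of 15 sorting and endocytosis genes 14 were tested, with medians of -4e-04 in brain and -0.064 in cord. Lrp1, the endocytic receptor that takes up APP and apolipoprotein E, was called lower in both tissues, where 0.192% and 4.55% of all genes were. Its gene level was 9.80 ± 0.09 in double knockout brain and 10.29 ± 0.17 in wild type brain (change -0.49, adjusted p = 0.04), and 10.00 ± 0.07 in double knockout cord and 10.55 ± 0.13 in wild type cord (SD, n = 4; change -0.55, adjusted p = 0.00244). The brain call ended in 18 of 29 alternatives, among them the fit with the replicate number as a block (adjusted p = 0.0797) and 12 of the 16 fits that leave out 1 array. Bin1, an amphiphysin-like endocytic adaptor, rose in cord, where 1.08% of all genes did, with 10.47 ± 0.14 in double knockout and 10.06 ± 0.09 in wild type (change 0.41, adjusted p = 0.0172). The Bin1 call ended without double knockout cord array 2 (0.36, adjusted p = 0.0763), and that of Mapk8ip1 in 6 of the 8 fits without 1 cord array (-0.43 to -0.38, adjusted p from 0.0516 to 0.0837). Mapk8ip1 also lost its call with the cord arrays alone (-0.44, adjusted p = 0.0579) and with a higher floor, the 75th percentile (-0.23, adjusted p = 0.199).

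Of 18 extracellular partner genes, all tested, 3 fell in cord, where 4.55% of all genes were called lower, and 0 were called in brain, where 0.268% of all genes were. The median changes were -0.015 in brain and -0.25 in cord. These were the lipid carrier genes Apoe (-0.73, adjusted p = 0.00203) and Clu (-0.58, adjusted p = 0.00888) and the protease inhibitor cystatin C gene Cst3 (-0.89, adjusted p = 0.0113, and -0.73, adjusted p = 0.0507, without double knockout cord array 3). With means over probe sets the Cst3 change was -0.44, still called. All 3 are abundant in glia, and the astrocyte and microglial marker sums were lower in the same double knockout cords; the part of that in these falls was not tested. Without the 4 cord arrays rich in muscle genes, the cord calls of Mapk8ip1, Lrp1, Bin1, Apoe, Clu and Cst3 all ended. Their adjusted p ran from 0.0721 for Apoe to 0.264 for Clu, and their changes from -0.98 to 0.39 with every direction kept. That fit has fewer cord arrays, and over all genes it called 100 in cord against 820 with all arrays. Whether muscle content or array number ended these calls was not tested.

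**Figure D5:**
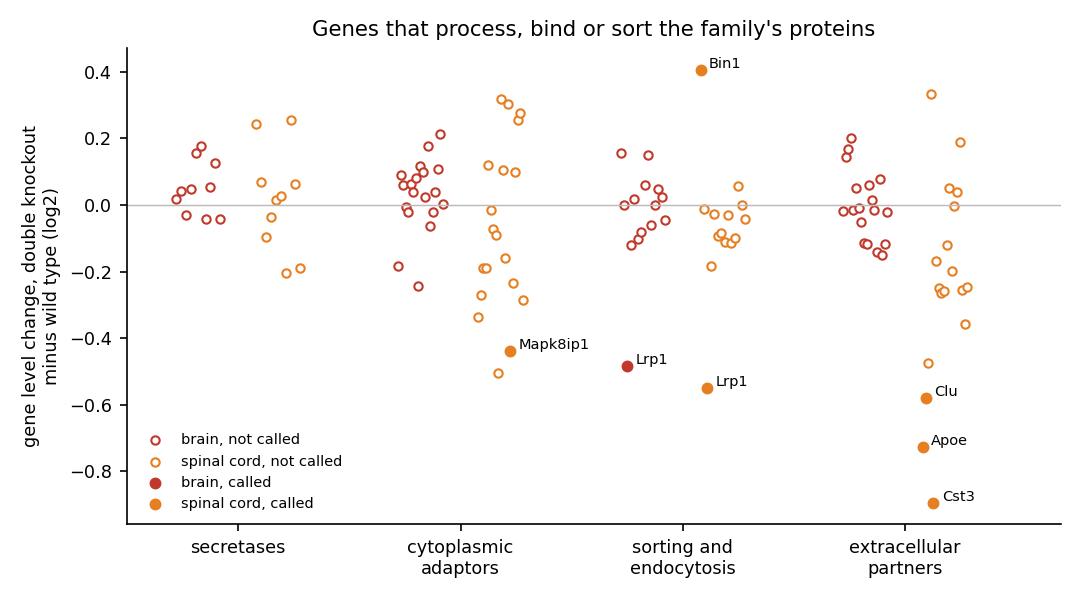
Gene level change, double knockout minus wild type, in brain (red) and spinal cord (orange) for the tested genes of 4 lists: 10 secretases, 19 cytoplasmic adaptors, 14 sorting and endocytosis genes and 18 extracellular partners. Filled points passed the test over all genes and carry their names; Lrp1 is the only gene filled in both tissues, at -0.49 and -0.55.

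Among the partners, probe sets were called by exon index in 2 genes. Of 1471 probe sets in the 60 listed genes with an exon index, 5 were called in brain (0.34%, against 0.15% of all probe sets). In cord 7 were called (0.476%, against 0.388% of all), which is near the share over all probe sets. All of these calls belonged to Bin1 and Nrcam. The 152 secretase and 334 adaptor probe sets held 0 calls, where these shares would give few. Nrcam encodes a cell adhesion molecule that interacts with the APP complex, and its probe set 5264370 averaged 10.21 ± 0.20 in double knockout brain and 12.00 ± 0.11 in wild type brain, and 10.39 ± 0.06 in double knockout cord and 11.52 ± 0.15 in wild type cord (log2 level, SD, n = 4). Its exon index change was -1.65 in brain (adjusted p = 4.11e-06) and -1.17 in cord (adjusted p = 0.000255). A second Nrcam probe set, 4319187, was called higher in cord (exon index change 4.82, SE 0.914, adjusted p = 0.031). Its log2 level was 10.61 ± 0.18 in double knockout cord and 5.76 ± 1.46 in wild type cord (SD, n = 4). In brain its level was 6.22 ± 2.58 in double knockout and 5.65 ± 0.38 in wild type. Double knockout brain and wild type cord were thus scattered.

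Bin1 had calls in both directions within 28 probe sets. The cord values share a subtracted term, the Bin1 gene level, which was itself called higher in double knockout cord. Probe set 4387878, called lower in cord by exon index (change -0.44), had mean levels of 11.695 in double knockout cord and 11.734 in wild type cord. Probe set 4732071 averaged 10.37 ± 0.21 in double knockout brain and 9.14 ± 0.29 in wild type brain, and 10.79 ± 0.10 in double knockout cord and 9.58 ± 0.16 in wild type cord. Its exon index rose by 1.08 in brain and 0.80 in cord (adjusted p = 0.00104 and 0.0142). Probe set 5608701 moved the other way, with exon index changes of -0.86 and -0.84 (adjusted p = 0.000623 and 0.001). At gene level Nrcam changed by 0.039 in cord and was not called (adjusted p = 0.867).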

How the data were processed

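Total RNA from 16 samples was hybridised to Affymetrix mouse exon arrays; Trizol extraction and biotin labelling are stated per the labels' protocols. The authors deposited linear intensity values per probe set, and the submitters' processing notes name mm8, PLIER and Affymetrix Power Tools, without versions or settings. Of 625534 probe sets, 303629 have 1 gene symbol in the platform annotation, 5892 have several and 316013 are unnamed here. No coordinates were used.

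The values were taken as log2(intensity + 16), which understates changes of dim probe sets. Gene levels need at least 3 probe sets above the floor (14570 genes), the exon index at least 5 (193126 probe sets of 12340 genes). One limma 3.58.1 fit (R 4.3.3) of the 4 group means on all 16 arrays gave two-sided tests; a call is a Benjamini-Hochberg adjusted p under 0.05 over all features of a comparison. Probe set levels were tested the same way. The number of arrays limits the precision; no depth exists for arrays. Intervals are at 95%. On data simulated for the cord comparison, with 14564 genes and 192935 probe sets tested, the steps recovered 78 of 100 gene changes of 0.5, 99 of 100 of 1, and 43 of 100 and 89 of 100 exon index changes of 1 and 2, with 16 and 13 false calls. The noise was drawn for each probe set on its own, so a gene's probe sets shared no deviation of an array, as real ones can. Recovery on the real arrays can therefore be lower.

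The members and lists were chosen with earlier results of these data known. Probe sets were named where their exon index was called, where they had the 3 largest exon index changes of a gene, or as its brightest or dimmest; partner genes where called, or else up to 3 per list by adjusted p. Replicate numbers paired the genotypes in brain, where every same-numbered pair's deviations from the group means correlated (r = 0.21 to 0.41), but not in cord (-0.12 to -0.003). No 2 arrays were identical, with r of at least 0.9445 in brain and 0.9294 in cord over gene levels, and the median intensity was 72.3 to 82.9 in brain and 99.5 to 116.2 in cord. Alternatives were other pseudocounts (1 and 64), floors, means over probe sets, quantile normalization, centring, 1 tissue alone, the replicate block and each array left out; chosen after seeing the data were leaving out probe set 5477899, the 4 cord arrays rich in muscle genes or both brain arrays of number 3, and a sex term.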

Additional observations from a re-analysis of the deposited data

Results flagged for a closer look

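In 5 of 92 groups of 4 arrays examined, 1 array stood far from the other 3; chance marks about 1 group in 20, so a count of this size is near what chance gives. App probe set 5034430 was 6.64 on wild type cord array 3 and 7.66 to 7.84 on the other 3 wild type cord arrays. App probe set 4349797 was 9.32 on double knockout cord array 1 and 9.54 to 9.57 on the others. Aplp1 probe set 5558799 was 11.94 on double knockout brain array 4 and 11.82 to 11.83 on the others, and Aplp1 4921019 was 12.42 on wild type cord array 2 and 12.28 to 12.29 on the others. Aplp2 probe set 4718892 was 7.99 on wild type brain array 3 and 7.19 to 7.32 on the others. All are log2 levels. Probe set 5477899 had no such array in any group.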

How the results depend on the processing

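The fall of Aplp2 probe set 5477899 by exon index was called under all 29 alternatives in each tissue, from -2.32 to -2.10 in brain and from -1.77 to -1.47 in cord. The Aplp2 gene level in cord kept its direction but lost its call with the floor at the 75th percentile (-0.25), with means (-0.23), without 5477899 (-0.29) and without the 4 cord arrays rich in muscle genes (-0.41); with single arrays left out it stayed called (-0.49 to -0.40). The 3 Aplp2 probe sets called in cord became 1 under those 4 settings and with the cord arrays alone. In wild type cord against brain, Aplp1 was called lower with means (-0.27) and turned to 0.090 with quantile normalization and 0.017 with centring, while Aplp2 was called higher with quantile normalization (0.36), centring (0.28) and without both number 3 brain arrays (0.22; 0.0995 to 0.22 with single arrays left out, called without wild type brain array 3). Each of these Aplp2 levels includes 5477899, and without it the main Aplp2 difference was 0.0195. The exon index of 5477899 was called higher in wild type cord with means (0.33) and without itself in the gene level (0.40). The probe sets called between wild type cord and brain ranged from 0 to 8 for App, 2 to 7 for Aplp1 and 1 to 5 for Aplp2 over the alternatives. With single arrays left out, Aplp1 in brain ran from -0.0046 to 0.060 and the App tissue difference from -0.019 to 0.054.

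Small uncalled exon index changes turned sign. With no floor 4718892 in brain was 0.093. With the higher floor 5504754 in brain was -0.0047. With quantile normalization 5504754 and 5558799 in cord were 0.053 and 0.0061. Without the muscle-rich arrays 4349797, 5558799 and 5166920 in cord were 0.022, 0.010 and 0.089. Without the number 3 brain arrays 4724088, 4718892, 5057562 and 5073780 in brain were -0.068, 0.044, -0.0041 and -0.066. Single arrays left out moved 5034430 (-0.041 to 0.50), 4718892 (-0.10 to 0.064), 5073780 (-0.011 to 0.11) and 5504754 (-0.0027 to 0.057) in brain, and 4349797 (-0.16 to 0.037), 5166920 (-0.17 to 0.039) and 5558799 (-0.034 to 0.036) in cord.

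Over all genes, 820 were called in cord (420 to 1231 with single arrays left out, 100 without the muscle-rich arrays, 1620 with quantile normalization) and 39 in brain (24 to 64); the share of cord calls that were higher was 19.1%, 27.8% with quantile normalization and 35.3% with centring. Exon index calls ranged from 111 to 1755 in cord and from 187 to 318 in brain. The replicate block left the values as they were and changed the calls of Lrp1 in brain (adjusted p = 0.0797) and 4718892 in cord (0.0532) among the named results; 5477899 stayed called (6.47e-05 in brain). The cause of these changes was not tested.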
